A study of Homo sapiens with 6 samples.

Results

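GABRA3, CSAG1, CSAG2 and the MAGE-A genes MAGEA1, MAGEA3, MAGEA4, MAGEA6, MAGEA10, MAGEA11 and MAGEA12 are 10 genes of human chromosome X, of 20172 symbols that the platform annotation pairs with the array. They were taken as every probe set annotated to any of the 10 symbols. Probe sets with exactly 1 symbol and probe sets with several symbols were kept apart, and a single-symbol gene was to be read from its brightest probe set over all 6 arrays. The rule found 13 probe sets. GABRA3, CSAG1, MAGEA1, MAGEA4, MAGEA10 and MAGEA11 each had 1 single-symbol probe set. CSAG2, MAGEA3, MAGEA6 and MAGEA12 had only probe sets with several symbols, 7 in all, so no value belongs to any of those 4 genes alone. The genes were chosen with the difference between the groups already known, which makes their values a description without a test.

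The RNA came from HT29 cells, a human line from a colorectal adenocarcinoma, at day 7 of culture. There were 6 arrays: 3 of cells carrying a construct for laminin α1, a basement membrane protein chain, and 3 of cells carrying a control construct, with the 3 of each group taken at independent passages. Neither the promoter of the construct nor how many clones each group stands for is given in the sources. LAMA1, which encodes laminin α1, had log2 values of 5.79, 5.72 and 5.71 in the laminin α1 arrays, against 5.71, 5.63 and 5.60 in the control arrays. Its difference was 0.09 (adjusted p = 0.535 by limma), which gives no check of the labels, since it is not known here if the probes cover the construct. The epithelial genes EPCAM, KRT8 and KRT18 were bright in both groups, at 11.99, 12.95 and 12.85 in the laminin α1 arrays and 12.11, 12.90 and 12.77 in the control arrays (log2 means, n = 3 each), and were chosen for this check after their values had been seen.

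MAGE-A and CSAG genes encode cancer-testis antigens: in normal tissue their RNA is found mainly in male germ cells, and many tumours express them again. Methylation of CpG sites in their promoters is known to keep MAGE-A genes silent in other cells. Their peptides, shown on MHC class I molecules, can be recognised by T cells, and the MAGE homology domain binds ubiquitin ligases of the RING type. GABRA3 encodes the α3 subunit of the GABA-A receptor, a chloride channel that carries inhibitory signals between neurons. It lies between MAGE-A genes on chromosome X and carries microRNA genes of the miR-105 and miR-767 families in its introns.

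Promoter sequences of MAGE-A and CSAG genes are shown first, because they show how alike these genes are. They also set some genes with higher probe sets beside MAGEA4 and MAGEA11, both dim in all arrays. The sequences were taken from RefSeq (GRCh38.p14) as windows of 300 bases, 250 before and 50 after an annotated start. At least 1 window was found for 6 of the 10 genes, and none for GABRA3, CSAG2, MAGEA1 and MAGEA10. The MAGEA3 and MAGEA6 windows differed at 0 positions. The first MAGEA12 window and the CSAG1 window lie on opposite strands and overlap by 135 bases, with their starts 36 bases apart. Capitals mark the longest run found, on either strand, in the MAGEA3, MAGEA12 and CSAG1 windows alike, which is 24 bases long. In MAGEA12 and CSAG1 it is the same stretch of DNA, inside their overlap, read from opposite strands. No MAGEA4 or MAGEA11 window holds the run exactly. It was sought only in windows of genes with higher probe sets, so that absence is no independent contrast. In MAGEA4, capitals mark the closest stretch: its first window departs from the run by G10A, C11T and A13C, and its other 4 windows only by C9T (the base of the run first, positions counted from 1 at its 5′ end as in MAGEA3). Stretches were compared base by base without gaps, and the closest one in the MAGEA11 window differs at 11 positions and is not marked. That window holds the start of the run, GGATGTGA, at another place. No alignment with gaps was made, so a counterpart of the run with bases gained or lost would not have been marked.
MAGEA3, chrX:152698544-152698843 (+ strand): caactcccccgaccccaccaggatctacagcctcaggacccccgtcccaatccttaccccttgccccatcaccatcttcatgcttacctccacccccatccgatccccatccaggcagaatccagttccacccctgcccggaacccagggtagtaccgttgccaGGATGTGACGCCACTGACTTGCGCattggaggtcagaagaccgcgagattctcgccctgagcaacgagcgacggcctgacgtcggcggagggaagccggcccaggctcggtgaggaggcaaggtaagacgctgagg
MAGEA12, first window, chrX:152733507-152733806 (+ strand): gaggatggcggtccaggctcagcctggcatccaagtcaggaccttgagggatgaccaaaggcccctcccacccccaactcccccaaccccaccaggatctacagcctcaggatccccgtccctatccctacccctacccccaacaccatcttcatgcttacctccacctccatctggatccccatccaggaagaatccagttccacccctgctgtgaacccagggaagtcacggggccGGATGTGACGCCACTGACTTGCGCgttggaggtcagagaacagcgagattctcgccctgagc
CSAG1, chrX:152733672-152733971 (minus strand): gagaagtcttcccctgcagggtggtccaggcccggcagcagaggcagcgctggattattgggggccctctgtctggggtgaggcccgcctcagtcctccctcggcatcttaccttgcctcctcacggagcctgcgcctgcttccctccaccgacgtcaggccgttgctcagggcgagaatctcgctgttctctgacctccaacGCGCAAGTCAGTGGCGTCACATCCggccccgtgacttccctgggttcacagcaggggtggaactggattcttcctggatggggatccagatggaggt
MAGEA4, first of its 5 windows, chrX:151912224-151912523 (+ strand): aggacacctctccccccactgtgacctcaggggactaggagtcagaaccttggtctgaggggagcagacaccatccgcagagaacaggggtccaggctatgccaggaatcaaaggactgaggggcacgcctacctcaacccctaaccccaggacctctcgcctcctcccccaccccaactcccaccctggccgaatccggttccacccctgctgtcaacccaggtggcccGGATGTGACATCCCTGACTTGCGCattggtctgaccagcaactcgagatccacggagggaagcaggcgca
MAGEA4, the third, chrX:151915987-151916286 (+ strand): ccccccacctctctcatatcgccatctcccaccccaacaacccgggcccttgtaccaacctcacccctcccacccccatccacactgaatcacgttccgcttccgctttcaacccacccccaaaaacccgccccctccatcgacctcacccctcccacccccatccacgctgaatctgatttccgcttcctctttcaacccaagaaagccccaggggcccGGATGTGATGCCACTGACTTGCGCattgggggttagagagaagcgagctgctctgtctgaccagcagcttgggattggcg
MAGEA11, chrX:149711810-149712109 (+ strand): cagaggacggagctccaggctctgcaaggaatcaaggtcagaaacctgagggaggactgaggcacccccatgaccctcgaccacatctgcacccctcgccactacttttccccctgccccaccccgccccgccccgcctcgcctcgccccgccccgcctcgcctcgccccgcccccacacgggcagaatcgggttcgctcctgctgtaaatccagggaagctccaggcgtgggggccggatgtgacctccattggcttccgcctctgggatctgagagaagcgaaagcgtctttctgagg

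Searched on both strands, the run GGATGTGACGCCACTGACTTGCGC was in 11 of 35116 RefSeq windows, or 0.0313%. These 11 belong to CSAG1, CSAG3, MAGEA2, MAGEA2B, MAGEA3, MAGEA6, MAGEA12 and the divergent transcripts MAGEA3-DT and MAGEA6-DT. The CSAG1 window and both MAGEA12 windows hold the same copy, so the 11 windows stand for fewer copies of the run. Its first 8 letters, GGATGTGA, were in all 11 windows of the 6 genes, those of MAGEA4 and MAGEA11 included, and in 1.16% of all windows. The hexamer CCGGAA, a form of the core bound by ETS factors, was in the MAGEA3 and MAGEA6 windows, in none of the other 4 genes' windows, and in 17.2% of all windows. CpG sites numbered 19 in the MAGEA3 and MAGEA6 windows, 16 in that of CSAG1, 9 and 15 in those of MAGEA12, 10 to 15 in those of MAGEA4 and 21 in that of MAGEA11, against a median of 14 over all windows. The letters were searched after the values had been seen, and a match describes a window without showing that anything binds there.

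In the arrays labelled laminin α1, RNA for GABRA3, for CSAG1 and for the probe sets shared by MAGEA3 and MAGEA6, by the CSAG genes and by CSAG4 and MAGEA12 stood well above the control arrays. MAGEA1 was slightly higher, and MAGEA4, MAGEA10 and MAGEA11 lay near their control levels. Differences are laminin α1 minus control on the log2 scale, with standard errors (SE) from a limma fit over all 33297 probe sets. Of the 13 probe sets, 9 had all 3 laminin α1 arrays above all 3 control arrays, where 9.02% of all probe sets did, and 10.1% of the genes tested. In cultures read in bulk, more cells with a transcript and more transcript per cell cannot be told apart.

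GABRA3 had log2 values of 7.90, 7.59 and 7.53 in the laminin α1 arrays, against 4.93, 5.12 and 4.69 in the control arrays. The groups lay far apart, and the laminin α1 array of replicate 1 was the highest. The means were 7.68 ± 0.20 in laminin α1 arrays and 4.91 ± 0.22 in control arrays (SD, n = 3 each), a difference of 2.76 (SE 0.14). In the laminin α1 arrays the probe set lay at the 66.7th percentile of all probe sets, and in the control arrays at the 26.7th, where signal is low and the size of a fold is uncertain. The control level lay below the 25th percentile of gene means, log2 5.50, which served as the level filter for tests over genes.

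CSAG1, whose product is a cancer-testis antigen first described in chondrosarcoma, was high in all 3 laminin α1 arrays. Its log2 values were 9.20, 9.14 and 8.86 in the laminin α1 arrays, against 6.68, 7.27 and 6.90 in the control arrays. The control arrays were spread more widely than the laminin α1 arrays, and the groups lay far apart. The means were 9.07 ± 0.18 in laminin α1 arrays and 6.95 ± 0.30 in control arrays (SD, n = 3 each), a difference of 2.12 (SE 0.16), or 4.34-fold. Its signal stood at the 82.6th percentile of all probe sets in laminin α1 arrays and at the 57.0th in control arrays.

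**Figure D1:**
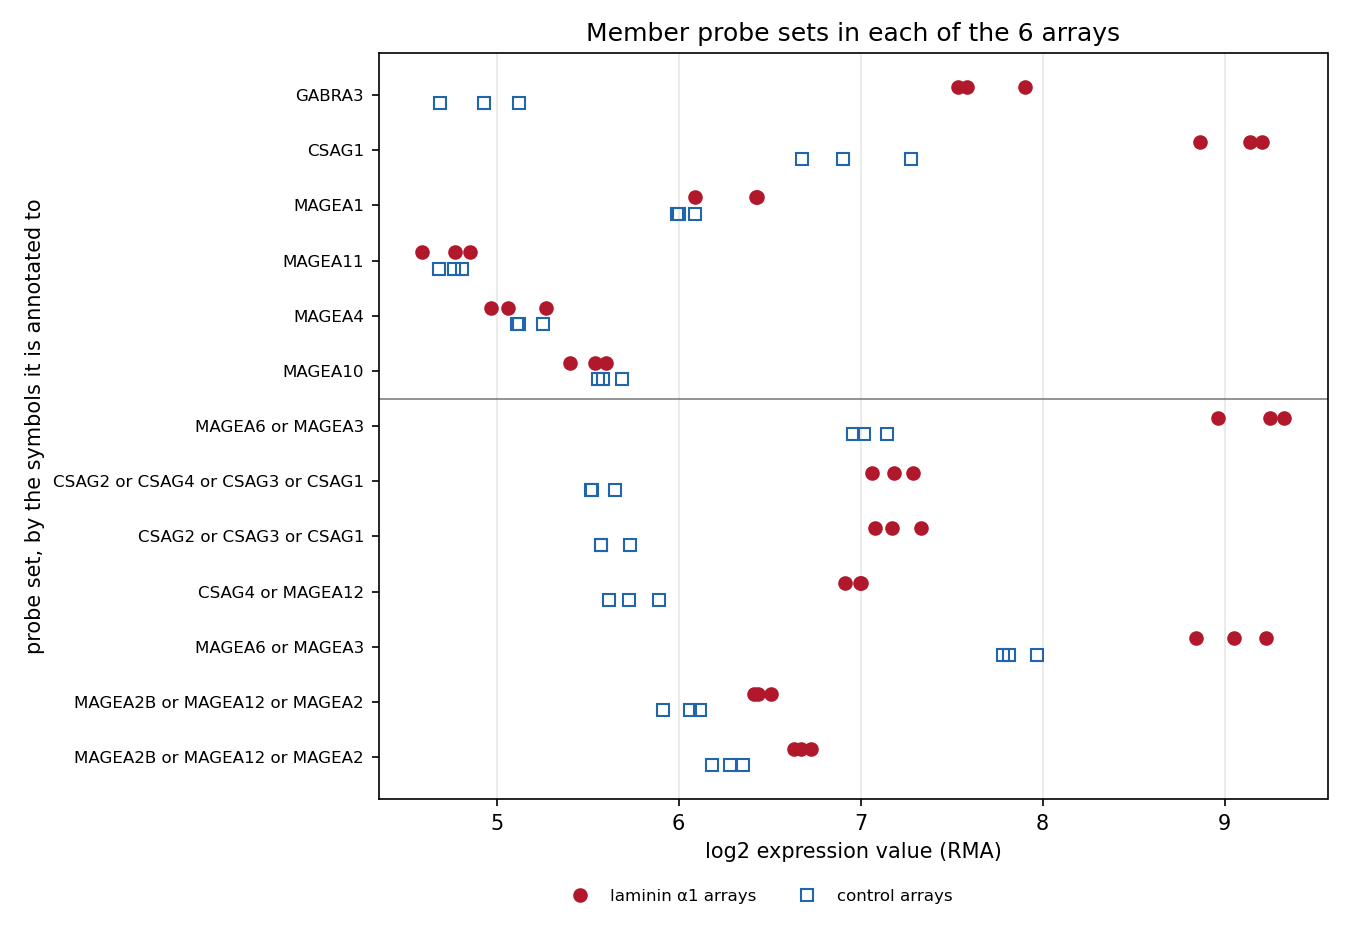
Log2 expression values (horizontal axis) of the 13 probe sets annotated to the 10 genes (rows), with 3 laminin α1 arrays as filled circles and 3 control arrays as open squares. Rows above the line have 1 symbol and rows below it several. GABRA3, CSAG1 and all 7 rows with several symbols have no overlap between the groups.

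CSAG2, also known as TRAG3 for its link to taxol resistance, could be read only together with its relatives. The probe set for CSAG2, CSAG3 or CSAG1 had 7.33, 7.17 and 7.08 in the laminin α1 arrays, against 5.73, 5.57 and 5.57 in the control arrays, a difference of 1.57 (SE 0.08). A probe set that adds the pseudogene CSAG4 to the same symbols had 7.29, 7.18 and 7.07 in the laminin α1 arrays, against 5.65, 5.52 and 5.52 in the control arrays, a difference of 1.61 (SE 0.08). In both, replicate 1 was the highest of either group, and the groups lay far apart. These probe sets share CSAG1 among their symbols, so they are no independent measurement of CSAG2.

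MAGEA3 and MAGEA6 encode near-identical proteins that join the ubiquitin ligase TRIM28 and direct it to the kinase subunit AMPKα1. They share 2 probe sets. One had 9.25, 9.33 and 8.96 in the laminin α1 arrays, against 6.96, 7.02 and 7.15 in the control arrays, a difference of 2.14 (SE 0.10), or 4.41-fold. The other had 9.05, 9.23 and 8.84 in the laminin α1 arrays, against 7.81, 7.78 and 7.97 in the control arrays, a difference of 1.19 (SE 0.10), or 2.28-fold. The direction was the same in both but the sizes differed by several times the standard error of either. The annotation gives them the same symbols, and which of the 2 genes supplied the signal could not be read from it.

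MAGEA12, which lies head to head with CSAG1, was read by 3 probe sets, none of its own. The one annotated to CSAG4 or MAGEA12 had 7.00, 6.91 and 7.00 in the laminin α1 arrays, against 5.73, 5.89 and 5.62 in the control arrays, a difference of 1.23 (SE 0.08). The laminin α1 arrays there lay close together, with replicate 2 lowest. The probe sets for MAGEA2B, MAGEA12 or MAGEA2 differed less. One had 6.73, 6.63 and 6.67 in the laminin α1 arrays, against 6.28, 6.35 and 6.18 in the control arrays, a difference of 0.40 (SE 0.07). The other had 6.51, 6.41 and 6.44 in the laminin α1 arrays, against 6.06, 6.12 and 5.91 in the control arrays, a difference of 0.42 (SE 0.07). The groups did not overlap in any of the 3.

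MAGEA1, the founding member of the family, had 6.43, 6.43 and 6.09 in the laminin α1 arrays, against 6.09, 5.99 and 6.00 in the control arrays. The difference was 0.29 (SE 0.10), and the groups met at 6.09, where the laminin α1 array of replicate 3 lay with the control array of replicate 1. MAGEA10, whose peptides T cells also recognise, had 5.54, 5.41 and 5.60 in the laminin α1 arrays, against 5.56, 5.69 and 5.59 in the control arrays, a difference of -0.10 (SE 0.07). MAGEA4, a partner of the DNA damage ligase RAD18, had 4.97, 5.27 and 5.06 in the laminin α1 arrays, against 5.11, 5.25 and 5.13 in the control arrays. Its difference was -0.06 (SE 0.09). MAGEA11, a coregulator of the androgen receptor, had 4.59, 4.86 and 4.77 in the laminin α1 arrays, against 4.77, 4.69 and 4.81 in the control arrays, a difference of -0.01 (SE 0.08). The groups overlapped in all 4 genes. MAGEA4 and MAGEA11 lay below the level filter in both groups and MAGEA10 close above it, so a change at low level may not be visible.

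Of the 6 single-symbol genes, 4 had a mean over all arrays above the level filter and were among the 13812 genes fitted. GABRA3 was among them only through the laminin α1 arrays, since its control mean was below the filter. The genes were chosen by this same contrast, so their place in the fit is a description and no test of them. GABRA3 and CSAG1, 2 of the 4, were past the threshold of an adjusted p under 0.05 upward, where 2.69% of all genes tested were, and 0 downward, where 2.59% were. The median difference was 0.14 over the 6 single-symbol genes and 1.23 over the 7 probe sets with several symbols, against -0.01 over all genes with a single-symbol probe set and -0.0013 over all probe sets with several symbols. Of all 33297 probe sets, 54 were higher by at least 1 log2 unit, or 0.162%, and 7 of these 54 carried symbols of the 10 genes. Since these genes were picked from this comparison, the counts describe the choice and are no evidence for it.

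The laminin α1 array of replicate 3 was the lowest of its group for GABRA3, CSAG1, MAGEA1, both MAGEA6 or MAGEA3 probe sets and both CSAG2 probe sets. Among the 372 genes that rose, the same array was lowest for 188, or 50.5%, so this order was common among them. Without that array the difference of GABRA3 was 2.83 and that of CSAG1 was 2.22. Over all alternatives tried, leaving out each array in turn among them, GABRA3 ranged from 2.65 to 2.87 and CSAG1 from 1.98 to 2.28.

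Along chromosome X, the higher probe sets were annotated to genes in 2 places, with genes near control level around and between them. Going from FATE1 to ZNF275 in RefSeq order, MAGEA4, GABRE and MAGEA10 came before GABRA3, and GABRQ followed it. Then came the stretch of MAGEA3, CSAG2, MAGEA2B, CSAG1, MAGEA12, CSAG4, MAGEA2, CSAG3 and MAGEA6. Every probe set in it had laminin α1 arrays wholly above control arrays. Only CSAG1 there had a probe set of its own, and the shared probe sets recur at each of their genes. MAGEA2 and MAGEA2B were read only by probe sets shared with MAGEA12, with differences of 0.40 and 0.42. GABRA3 and that stretch were thus separated by GABRQ, another GABA receptor subunit, with means of 5.51 ± 0.09 in laminin α1 arrays and 5.43 ± 0.06 in control arrays (SD, n = 3 each). Past MAGEA6 came CETN2, NSDHL, ZNF185 and the PNMA genes, and MAGEA1 stood apart beyond them.

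**Figure D2:**
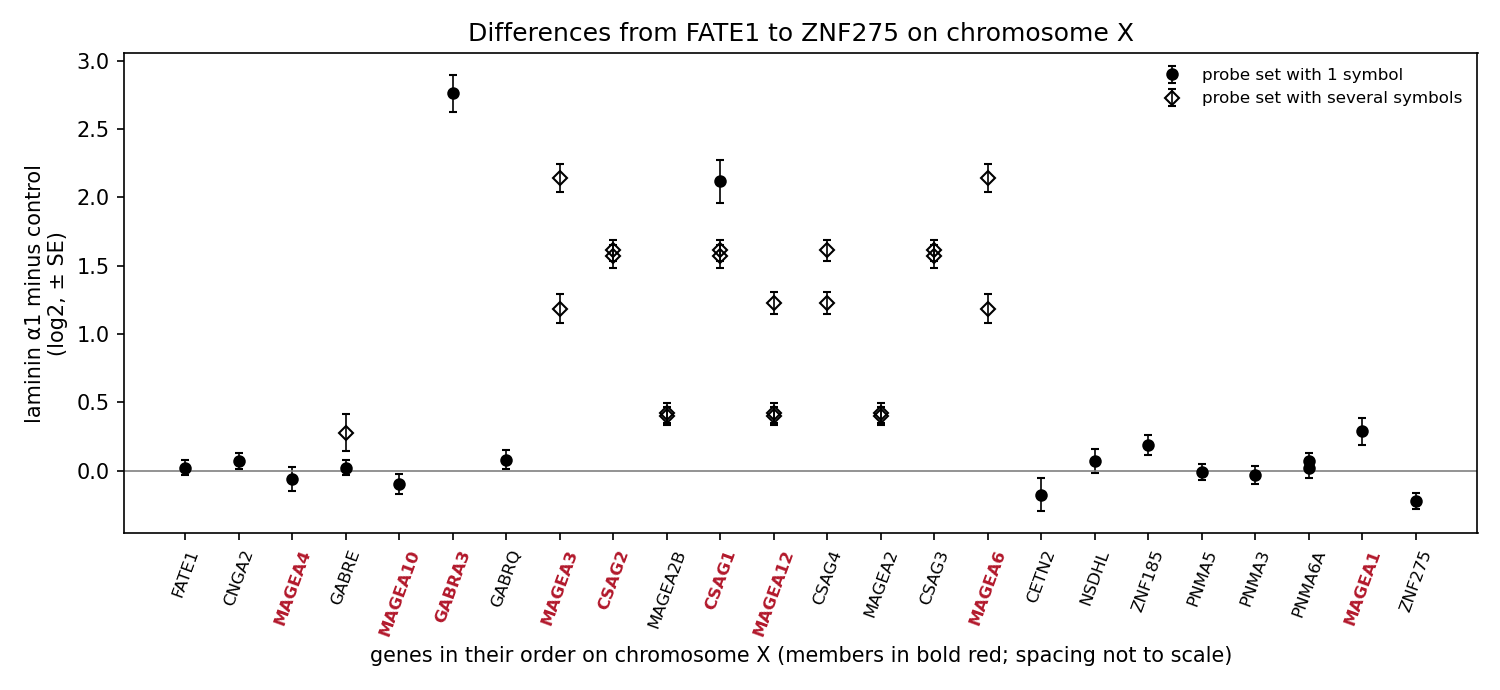
Difference between laminin α1 and control arrays (vertical axis, log2, bars ± SE) for probe sets of genes in RefSeq order on chromosome X (horizontal axis, not to scale). A probe set with several symbols is drawn at each of its genes. GABRA3 and the genes from MAGEA3 to MAGEA6 lie above 0.4, while GABRQ between them and the genes outside them, MAGEA1 included, lie below 0.3.

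None of the neighbouring genes was called. Of the 10 nearest genes with a single-symbol probe set on each side of GABRA3 and of CSAG1, 18 were no members, and 11 of them were tested. In the limma fit 0 of 11 passed, with 1 higher and 2 lower at an unadjusted p under 0.05, against 5.29% past the threshold among all genes. GABRE, the ε subunit gene of the GABA-A receptor, had 9.35 ± 0.03 in laminin α1 and 9.33 ± 0.03 in control arrays (SD, n = 3 each), a difference of 0.02 (95% interval -0.11 to 0.15). A second probe set, shared with the intronic microRNA gene MIR224, had means of 4.56 in laminin α1 arrays and 4.28 in control arrays. ZNF275, a zinc finger gene, had 8.18 ± 0.02 in laminin α1 and 8.40 ± 0.08 in control arrays (SD, n = 3 each), with adjusted p = 0.0945 by limma. HMGB3, a chromatin protein, had a difference of -0.24 and ZNF185, an actin-binding LIM protein, one of 0.19. Over chromosome X as a whole, 10 of 438 tested genes other than the members rose and 12 fell, or 5.02%. That count of 22 was 41 with laminin α1 replicate 3 left out, and 13 with either laminin α1 replicate 2 or control replicate 2 left out.

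The intronic microRNA genes of GABRA3 had no single-symbol probe set, and 2 probe sets were annotated to MIR105-2 or MIR105-1. The mature sequences of miR-105 are shown, from RefSeq (GRCh38.p14), because both copies of its gene lie within GABRA3. The 5p form lies at chrX:152392265-152392287 in MIR105-1 and at chrX:152394458-152394480 in MIR105-2, and the 3p form at chrX:152392228-152392249 and chrX:152394421-152394442, all on the minus strand. Capitals mark the seed, bases 2 to 8.
miR-105-5p: uCAAAUGCucagacuccuguggu
miR-105-3p: aCGGAUGUuugagcaugugcua

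One probe set for MIR105-2 or MIR105-1 had log2 values of 5.08, 5.03 and 5.15 in the laminin α1 arrays, against 4.99, 4.64 and 4.77 in the control arrays, a difference of 0.28 (SE 0.09). The other had 5.09, 5.02 and 5.01 in the laminin α1 arrays, against 5.002, 4.70 and 4.84 in the control arrays, a difference of 0.19 (SE 0.08). In both, the laminin α1 arrays lay wholly above the control arrays, as they did in 9.02% of all probe sets. The groups nearly met. The lowest laminin α1 array and the highest control array stood at 5.03 and 4.99 in the first probe set, and at 5.011 and 5.002 in the second. Their levels lay at percentiles 28.6 and 29.3 of all probe sets in laminin α1 arrays and at 25.1 and 25.8 in control arrays, so both were dim in all arrays. The probe sets read the genes' transcribed sequence from total RNA, and no mature microRNA was measured.

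Other cancer-testis genes of chromosome X that had a probe set of their own lay near their control levels. A list of 83 other X-linked cancer-testis genes, among them MAGE-B, MAGE-C, GAGE, PAGE, SSX and SPANX genes, had 48 on the array with a single-symbol probe set, of which 37 lay below the level filter. Of the 11 tested, 0 passed by limma, with 0 higher and 2 lower at an unadjusted p under 0.05. Among all genes 5.29% passed, so 0 of 11 is near that share. The median difference was 0.07 against -0.01 over all genes tested. Without the filter, the 48 differences ran from -0.23 for FTHL17, a ferritin-like gene, to 0.25 for PAGE1. CT55, a germ cell gene, had 5.60 ± 0.12 in laminin α1 and 5.78 ± 0.06 in control arrays (SD, n = 3 each; adjusted p = 0.285 by limma). MAGEA8, a MAGE-A gene farther from this stretch, had 7.72 ± 0.13 in laminin α1 and 7.64 ± 0.07 in control arrays (SD, n = 3 each), and was named for its family after its values had been seen.

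Of the probe sets with several symbols, 45 were annotated to listed X-linked cancer-testis genes and to none of the 10. Many of these hold the same values, such as those of the CT47A and XAGE1 copies, so the 45 gave only 29 distinct readings, of which 12 had a mean above the level filter. The median difference was 0.00477 over the 29 readings, and the 12 ran from -0.44 to 0.14. In 0 of 29 did the laminin α1 arrays lie wholly above the control arrays, where 9.02% of all probe sets did, and in 3 they lay wholly below, where 8.08% of all probe sets did. The lowest of the 12 was a probe set shared by GAGE genes, named after its values had been seen, with 8.21 ± 0.08 in laminin α1 arrays and 8.65 ± 0.04 in control arrays (SD, n = 3 each), a difference of -0.44 (SE 0.06). Another GAGE probe set was too dim for its difference to be read, with means of 3.69 in laminin α1 arrays and 4.42 in control arrays.

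Of the germline genes on other chromosomes, 21 of 23 tested did not pass, 1 rose and 1 fell, or 8.70%, against 5.29% of all genes. The list's median was -0.04. CTCFL, a germ cell relative of the insulator protein CTCF that is known to bind cancer-testis promoters, had 9.06, 9.17 and 9.18 in the laminin α1 arrays, against 8.50, 8.84 and 8.81 in the control arrays. It rose by 0.42 (SE 0.09; adjusted p = 0.0301 by limma), and the call was lost without laminin α1 replicate 2, without control replicate 1 and with the mean of its probe sets (adjusted p from 0.00510 to 0.186 over 12 alternatives). SPAG1, a dynein assembly factor found in sperm and ciliated cells, fell by 0.80 (SE 0.07; adjusted p = 7.61e-05 by limma). SYCP2, a synaptonemal complex protein, had 5.37 ± 0.17 in laminin α1 and 5.77 ± 0.24 in control arrays (SD, n = 3 each; adjusted p = 0.119 by limma). Without laminin α1 replicate 2 the count of 2 was 1.

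The type II MAGE genes, which are active in many tissues, gave 0 of 7 past the threshold by limma, with 1 higher at an unadjusted p under 0.05. Among all genes 5.29% passed, so 0 of 7 is near that share. MAGED2, a regulator of renal salt transport, had 7.74 ± 0.11 in laminin α1 and 7.54 ± 0.07 in control arrays (SD, n = 3 each; adjusted p = 0.207 by limma). MAGED1 had a difference of -0.12 (95% interval -0.34 to 0.10).

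**Figure D3:**
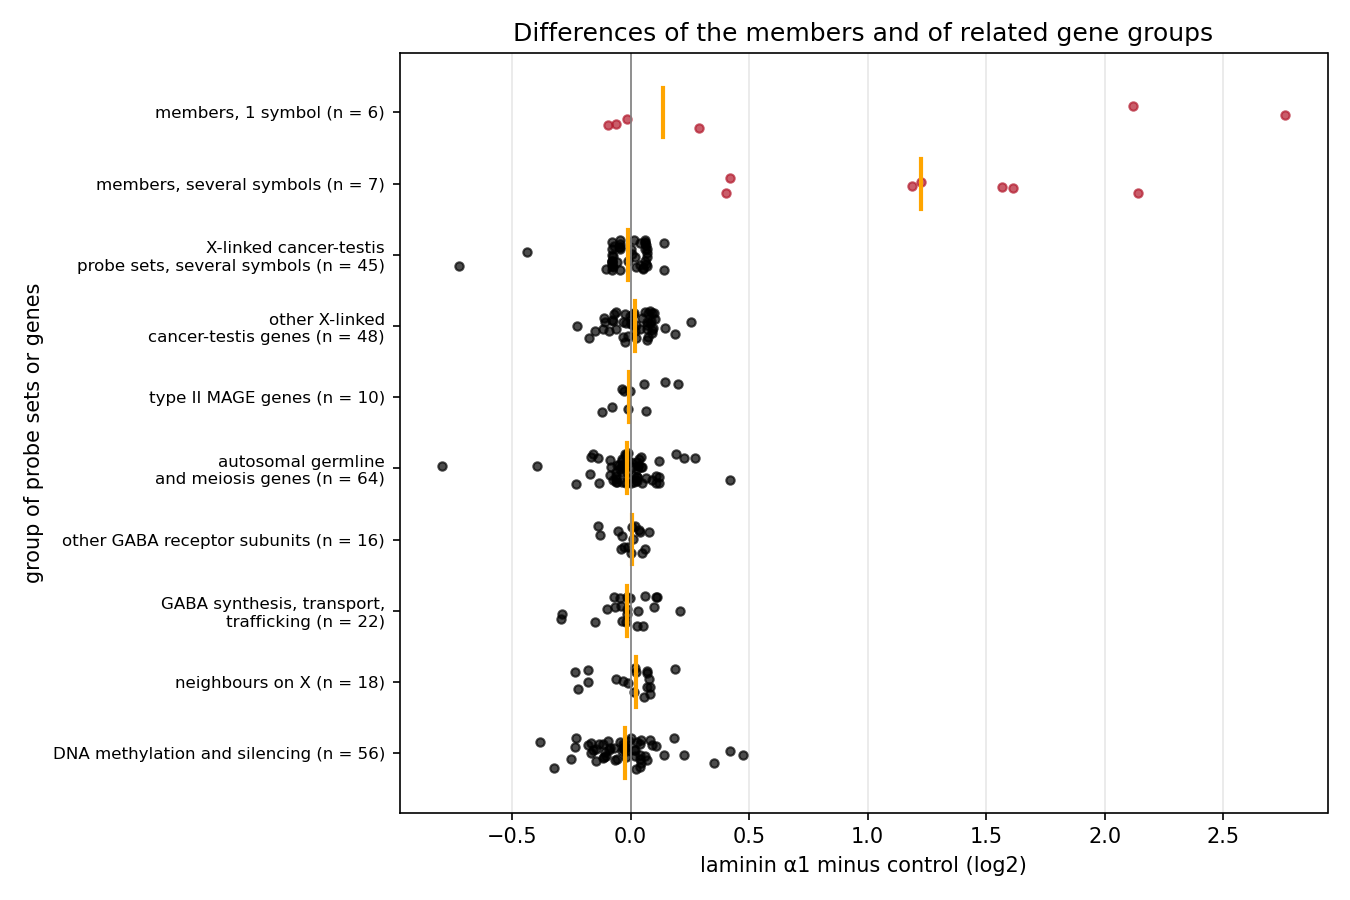
Differences between laminin α1 and control arrays (horizontal axis, log2) for each probe set or gene (points) in 10 groups (rows), without the level filter, with orange bars at the medians. The row of 45 probe sets holds repeated values. The members, in red, hold every point above 0.5, and the other groups lie between -0.80 and 0.47.

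Proteins known or proposed to work with MAGE family members were listed as 18 genes, of which 15 were tested. Of these, 1 rose and 1 fell, or 13.3%, against 5.29% of all genes. With only 15 genes, that count is not clearly apart from the share over all genes. TRIM31, a RING ubiquitin ligase, had 10.56 ± 0.04 in laminin α1 arrays and 10.06 ± 0.03 in control arrays (SD, n = 3 each). It rose by 0.50 (SE 0.06; adjusted p = 0.000945 by limma). TRIM8, of the same ligase family, fell by 0.31 (SE 0.08; adjusted p = 0.0476 by limma), a call lost in 8 of 12 alternatives (adjusted p from 0.00956 to 0.199). TRIM28, the partner of MAGEA3 and MAGEA6 and named for that role, had 11.03 ± 0.07 in laminin α1 and 10.99 ± 0.07 in control arrays (SD, n = 3 each), a difference of 0.04 (95% interval -0.11 to 0.20). RAD18, the partner of MAGEA4, had 8.79 ± 0.14 in laminin α1 and 9.09 ± 0.17 in control arrays (SD, n = 3 each; adjusted p = 0.139 by limma). PJA1, a RING ligase known as a partner of MAGED1, had a difference of 0.23 (adjusted p = 0.0674 by limma). The list's count of 2 was 1 without laminin α1 replicate 2 and without each of the control arrays in turn.

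For GABRA3 the related genes were the other subunits of GABA receptors. Of 20 listed, 16 were on the array and 11 of these lay below the level filter, so 5 were tested. None passed by limma, where 5.29% of all genes did, so 0 of 5 is near that share. An unadjusted p under 0.05 was found in 0, and the 5 differences ran from -0.04 to 0.02. Without the filter, the 16 differences lay between -0.14 for GABRR3 and 0.08 for GABRQ. GABBR1 and GABBR2, which form the metabotropic GABA receptor, had differences of -0.04 each, and GABRD, the δ subunit, one of 0.01.

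Genes of GABA synthesis, transport and receptor trafficking gave 0 of 19 past the threshold by limma, with 1 higher and 2 lower at an unadjusted p under 0.05. Among all genes 5.29% passed, and 19 genes are too few for 0 to differ clearly from that. SLC12A2, the cotransporter that raises chloride inside cells, had 11.82 ± 0.17 in laminin α1 and 12.11 ± 0.03 in control arrays (SD, n = 3 each; adjusted p = 0.102 by limma). ALDH5A1, which removes the product of GABA breakdown, had a difference of -0.29 (adjusted p = 0.120 by limma), and HAP1, a trafficking adaptor, one of 0.21 (adjusted p = 0.114 by limma). The count was 1 without laminin α1 replicate 1 and 1 without laminin α1 replicate 3.

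Genes of DNA methylation and silencing, among them the enzymes that methylate MAGE-A promoters, had 3 of 54 higher and 2 lower, or 9.26%, against 5.29% of all genes. Those higher were CTCFL, DAXX, a histone chaperone, by 0.35 (SE 0.07; adjusted p = 0.0171 by limma), and MPHOSPH8, a silencing factor of the HUSH complex, by 0.47 (SE 0.09; adjusted p = 0.0123 by limma). Those lower were IDH2, a mitochondrial dehydrogenase whose product feeds TET enzymes, which fell by 0.38 (adjusted p = 0.0246 by limma), and ATF7IP, which stabilises the methyltransferase SETDB1 and fell by 0.32 (adjusted p = 0.0373 by limma). Each of these calls was lost without at least 1 array. The count of 5 was 0 with control replicate 1 left out, 1 with control replicate 2 or with laminin α1 replicate 2 left out, and 8 with laminin α1 replicate 3 left out. DNMT1, which copies methylation after replication, had 10.09 ± 0.14 in laminin α1 and 10.05 ± 0.06 in control arrays (SD, n = 3 each), a difference of 0.04 (95% interval -0.14 to 0.22). DNMT3A and DNMT3B, the de novo methyltransferases, had differences of 0.01 and 0.04. These 3 were named for their role and not by p.

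By list average, markers of other cell types were close in both groups. The mean of 15 testis germ and Sertoli cell markers lay between 5.48 and 5.60 in the laminin α1 arrays and between 5.55 and 5.62 in the control arrays, and 0 of 6 tested passed by limma, with 1 higher at an unadjusted p under 0.05. Not every one was dim: SOX9, a Sertoli cell factor that intestinal epithelium also makes, had means of 9.71 in laminin α1 arrays and 9.65 in control arrays, and AMH, a Sertoli cell hormone, 7.71 in laminin α1 arrays and 7.74 in control arrays. The germ cell markers DDX4, DAZL and SYCP3 lay below the level filter in both groups, while PRM2 and TNP2 lay above it in both. PRM2 was the 1 higher at an unadjusted p under 0.05, by 0.171 (adjusted p = 0.228 by limma). Its laminin α1 arrays lay wholly above the control arrays. TNP2 had a difference of -0.077, with overlap between the groups. The 12 neuron markers averaged 5.60 to 5.65 in laminin α1 arrays and 5.60 to 5.63 in control arrays, with 0 of 7 past the threshold and 0 at an unadjusted p under 0.05. Fibroblast and blood cell markers, 11 on the array, averaged 5.71 to 5.72 in laminin α1 arrays and 5.67 to 5.73 in control arrays. None of the 6 tested passed by limma, and 1, CD14, was higher at an unadjusted p under 0.05, at 7.13 in laminin α1 and 6.93 in control arrays. Of all genes tested 5.29% passed, and these marker lists are too short for 0 to differ clearly from that share. The brightest of this list were CD68, a macrophage marker, at 7.80 in laminin α1 arrays and 7.71 in control arrays, and COL1A1, a collagen chain, at 7.40 in laminin α1 arrays and 7.34 in control arrays. The marker genes in these sentences were named after their values had been seen. Of the colon epithelium markers, 4 of 12 were lower by limma, where 2.59% of all genes were, and 0 were higher. The other 8 did not pass. CDX1, CDX2, CDH1, VIL1, KRT8, KRT18 and KRT19 had differences between -0.07 and 0.07. EPCAM had one of -0.12, with its laminin α1 arrays wholly below the control arrays (adjusted p = 0.434 by limma). Of the 12 markers, 5 lay wholly below in this way, where 11.5% of all genes tested did. Of the 4 called lower, CDH17, an intestinal cadherin, fell by 1.65 (adjusted p = 1.59e-06 by limma). The others of these 4 were GPA33, KRT20 and LGALS4, with differences of -0.63, -0.35 and -0.31. KRT20 and LGALS4 each lost the call without laminin α1 replicate 2 and without control replicate 2, and LGALS4 also without control replicate 1. The list averaged 9.79 to 9.81 in laminin α1 arrays and 10.0035 to 10.1212 in control arrays, and the part of that shift in the differences of GABRA3, CSAG1 and the MAGE-A genes was not tested.

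By likeness over the 6 arrays, the genes nearest to GABRA3 were CSAG1, GJB6, APOBEC3C, CST1 and MGP. Likeness was the root mean square distance between log2 values, each gene taken relative to its own mean over the 6 arrays. From GABRA3 the distance was 0.36 to CSAG1, 0.37 to GJB6, a connexin gene of chromosome 13, and 0.38 to APOBEC3C, a cytidine deaminase gene of chromosome 22. CST1, a cystatin of chromosome 20, and MGP, a matrix protein of chromosome 12, both lay at 0.49. The gene nearest to CSAG1 was APOBEC3C at 0.12, closer than GABRA3 at 0.36, and GJB6 and CST1 lay at 0.22 each. With 2 groups far apart, this measure mostly matches the size of the difference between the groups.

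**Figure D4:**
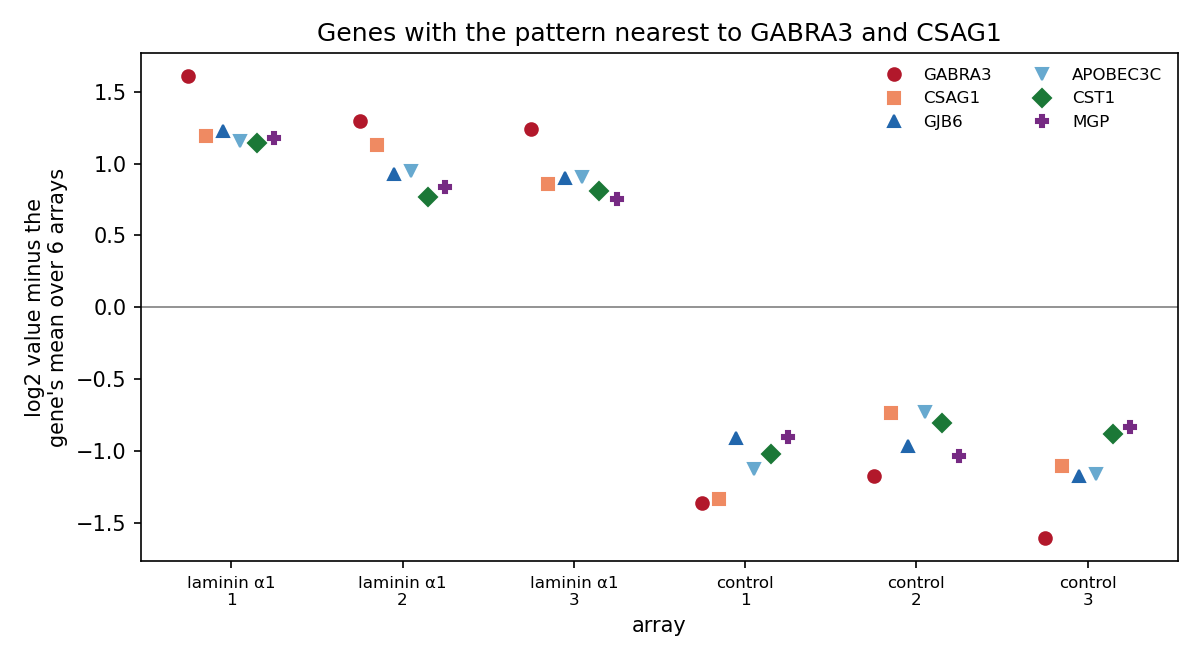
Log2 value minus the gene's own mean over 6 arrays (vertical axis) in each array (horizontal axis) for GABRA3, CSAG1 and the genes nearest to them. Each point is 1 gene in 1 array, all 6 genes are above 0 in the laminin α1 arrays and below 0 in the control arrays, and GABRA3 lies farthest from 0 in each array.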

How the data were processed

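The authors deposited log2 values per probe set of a 1-colour Affymetrix gene array, and the submitters' processing notes name RMA and Expression Console 1.1. RMA corrects background, quantile-normalizes the arrays and summarises probes, which hides any change that all genes share. The deposited values were used as they stand. Array medians lay between 6.45 and 6.49, and with 3 arrays a group the p values measure only the spread between passages.

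Of 33297 probe sets, the platform annotation paired 19460 with 1 symbol, 1754 with several and listed none for 12083. Taking the brightest single-symbol probe set gave 18417 genes, of which 13812 passed the level filter. limma 3.58.1 in R 4.3.3 was fitted without covariates, with Benjamini-Hochberg adjustment over all genes tested and a threshold of 0.05. The fit was tried on simulated data with noise drawn independently for each gene and array. That setting leaves out deviations shared between arrays, so it is no check of the calls under them.

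The 10 genes and the 12 lists, with 275 of 332 genes on the array, were chosen with earlier results of these data known. Genes named were the 10, LAMA1, up to 4 of each list by smallest p and the 5 nearest to GABRA3 and to CSAG1, with exceptions stated. The alternatives tried were testing without the filter or above the 50th percentile, averaging a gene's probe sets, centring arrays on their medians, trended robust eBayes, a replicate block, leaving out single arrays and, for the 10 genes, renewed quantile normalization.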

Additional observations from a re-analysis of the deposited data

How the results depend on the processing

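The differences of the 13 probe sets moved by less than 1 SD between replicates, pooled over the groups, in 110 of 110 comparisons with an alternative. Leaving out 1 of 3 arrays cannot move a difference by that much. Averaging probe sets changes nothing for a gene with only 1. Most of the 110 comparisons thus could not have come out otherwise, and their count is no evidence of stability. The median over the 6 single-symbol genes ranged from 0.10 to 0.18 with each array left out. Counts of calls depended more on the arrays. With each array left out in turn, the 730 genes past the threshold became 405 to 1211, chromosome X genes from 13 to 41, genes of DNA methylation and silencing from 0 to 8, germline genes and MAGE partners each from 1 to 3, and GABA synthesis and trafficking genes from 0 to 1. The other X-linked cancer-testis genes, type II MAGE genes, GABA receptor subunits and neighbours stayed at 0 in each of these. The germline count was 1 with the mean of probe sets. The MAGE partner count was 1 with no filter, with centring and with the trended and robust eBayes. The cause was not tested.

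With the replicate number as a block, 1596 genes passed, 49 on chromosome X, 4 germline genes, 4 MAGE partners, 2 GABA synthesis and trafficking genes and 1 neighbour. Same-numbered arrays correlated in their deviations from the group means at 0.39, 0.02 and 0.53 over genes, for numbers 1, 2 and 3. The highest correlations with another number were 0.14, 0.16 and -0.16. Numbers 1 and 3 thus went with a pairing by number, and number 2 did not. The sample titles number the arrays but name no pairing, and the main fit was made without it. If the arrays are paired, the main counts leave that out. The intronic microRNA genes had no single-symbol probe set, so no count over genes was possible for them. Low signal limits MAGEA4, MAGEA11, MAGEA10, which lay close to the level filter, and the control level of GABRA3.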
